A study of Rattus norvegicus with 12 samples.

Results

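Haemoglobin transcripts and 2 transcripts made in red blood cell precursors were followed across 12 left ventricle libraries of rat heart. The 5 genes were Hba-a1 and Hba-a2 (alpha chains of haemoglobin), Hbb (a beta chain), Ahsp and Alas2, taken as every row of the deposited table with one of these symbols, which gave 5 rows of 32735, each under its own gene ID. The libraries came from the ventricle of adult wild-type Groningen rats, a strain given without any transgene or allele: 6 unhandled controls (CTR) and 6 rats exposed to Repeated Social Defeat (RSD), in which the rat meets a resident rat, on 8 consecutive days. Punches of frozen ventricle gave total RNA, and 1 library was made per rat from 100 ng with a kit that reads the polyadenylated 3' end. The question put to these rows was whether they move together from rat to rat, as transcripts carried into the tissue by blood would.

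Adult haemoglobin is a tetramer of alpha and beta chains that each bind a haem. It is made in bone marrow precursors and persists, as protein and as remaining RNA, in the young circulating red cells called reticulocytes, which have lost their nucleus. Ahsp binds free alpha chains and keeps them stable until they pair, and Alas2 carries out the initial, rate-limiting step of haem synthesis in erythroid cells. In heart muscle the oxygen-binding globin is myoglobin (Mb), and haem is made through the housekeeping enzyme Alas1. In a bulk library, fewer cells of a type and less RNA per cell cannot be told apart.

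The alpha and beta genes lie in separate clusters in the RefSeq annotation (GRCr8), on chromosome 10 for Hba-a1 and Hba-a2 and on chromosome 1 for Hbb. Their start windows, 250 bases before to 50 after the annotated start, are shown as sequence only. Whether they bear on how these rows move across the libraries was not tested. Of the 5 genes 4 were found in the RefSeq table of start windows. Capitals mark matches, on both strands, to GATA words (AGATAA and AGATAG, and the same words opening with T), to CCAAT, to CACACCC and to TATA words (TATAAA, and the same word opening with C).
Hba-a1: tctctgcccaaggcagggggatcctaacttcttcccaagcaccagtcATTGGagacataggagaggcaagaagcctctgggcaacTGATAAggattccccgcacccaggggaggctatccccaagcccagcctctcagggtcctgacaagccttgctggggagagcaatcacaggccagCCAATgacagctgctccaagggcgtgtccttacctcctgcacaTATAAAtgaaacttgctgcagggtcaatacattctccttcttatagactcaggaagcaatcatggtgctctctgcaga
Hba-a2: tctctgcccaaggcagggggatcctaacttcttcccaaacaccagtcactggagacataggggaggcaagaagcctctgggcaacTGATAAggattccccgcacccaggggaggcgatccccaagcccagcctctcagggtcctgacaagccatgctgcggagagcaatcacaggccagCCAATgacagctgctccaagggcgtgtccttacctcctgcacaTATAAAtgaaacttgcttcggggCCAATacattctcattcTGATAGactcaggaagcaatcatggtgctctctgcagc
Hbb: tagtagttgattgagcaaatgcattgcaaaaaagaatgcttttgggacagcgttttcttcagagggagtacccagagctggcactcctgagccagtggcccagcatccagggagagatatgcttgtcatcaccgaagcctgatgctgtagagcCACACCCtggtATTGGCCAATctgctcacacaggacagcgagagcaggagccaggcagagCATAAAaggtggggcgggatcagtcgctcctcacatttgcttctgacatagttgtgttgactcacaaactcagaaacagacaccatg
The windows are chr10:15842531-15842830 for Hba-a1, chr10:15829089-15829388 for Hba-a2 and chr1:167663672-167663971 for Hbb, each on the minus strand and printed in the direction of transcription. The windows of the alpha pair were identical at 288 of 300 positions. Both held TGATAA 165 bases before the start, CCAAT 71 before it and TATAAA 28 before it, and each held a further CCAAT elsewhere. The Hba-a2 window also held TGATAG just after the start. The Hbb window held CACACCC 97 bases before the start, CCAAT 86 before it on the opposite strand and 81 before it on the same strand, and CATAAA 37 before it, with no GATA word. Among all 33469 windows of this length, 30.3% held a GATA word, 37.5% CCAAT, 7.08% CACACCC and 24.0% a TATA word. Matches to GATA, CCAAT and TATA words are thus common and CACACCC is less so, and all of them describe only the letters. RefSeq lists Hba-a1 as an older name of Hba-a2 and the reverse, and the deposited table uses the rn6 build, so which alpha window belongs to which deposited alpha row is uncertain.

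Library totals ran from 2062798 to 3731108 reads, with 1 read worth 0.268 to 0.485 CPM (read counts divided by the size of the library). Mitochondrial rows took 49.7% to 58.4% of reads. The 5 rows together took 0.221% (RSD 35) to 2.59% (RSD 34) of all reads, and 0.530% to 5.62% of the reads outside mitochondrial rows. RSD 40 is labelled female in a series described as male, and its Y-linked transcripts Eif2s3y and Kdm5d, at 7.36 and 10.7 CPM, lay within the range of the other 11 libraries (2.49 to 11.02 and 3.39 to 12.6), so the label goes against its transcripts; it was kept, and values without it are given where a result rests on it. Cardiomyocyte genes, the defining markers of the labelled tissue (Myh6, Actc1, Tnnt2 and 7 others), were detected in every library at a summed level of 44708 to 50659 normalised CPM (CPM divided by a library scaling factor). No batch or processing date is given in the sources used here.

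Hba-a1 (ENSRNOG00000029886) had the highest mean of the 5 rows. In CTR its normalised CPM was 1424 at the lowest (CTR 27), 3517 at the median and 9126 at the highest (CTR 23). In RSD it was 1292 at the lowest (RSD 35), 5530 at the median and 16263 at the highest (RSD 34). The highest library stood 12.6-fold above the lowest, and the groups overlapped, with 1 RSD library above the highest control and 1 below the lowest.

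Hba-a2 (ENSRNOG00000047321) ran from 911 (CTR 27) through a median of 2497 to 4231 (CTR 23) in CTR, and from 1093 (RSD 35) through 3490 to 10062 (RSD 34) in RSD. The groups overlapped, with 3 RSD libraries above the highest control. Hba-a1 and Hba-a2 are near-identical copies, and reads can be split between them or lost to both by the counting, so the level of each is uncertain. Their sum is less so only where reads were split, since reads lost to both lower the sum too.

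Hbb (ENSRNOG00000058105) ran from 25.7 (CTR 22) through 76.6 to 317 (CTR 23) in CTR and from 17.8 (RSD 35) through 84.4 to 304 (RSD 34) in RSD. The range was the widest of the 3 globin genes, 17.8-fold from lowest to highest, and RSD 35 and RSD 34 again lay at or near its ends. The beta genes of the rat are also close copies, so this level too depends on how reads were assigned.

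Ahsp (ENSRNOG00000020165), the alpha chain chaperone, rested on 2 to 71 reads per library. It measured 0.685 (CTR 27), 6.40 and 7.12 (CTR 23) normalised CPM at the lowest, median and highest control, and 3.67 (RSD 40), 8.06 and 19.6 (RSD 34) in RSD. Alas2 (ENSRNOG00000000167), with 16 to 200 reads, measured 6.504 (CTR 27), 15.0 and 37.5 (CTR 23) in CTR and 6.78 (RSD 35), 18.3 and 55.3 (RSD 34) in RSD. RSD 34 was the highest library for Hba-a1, Hba-a2, Ahsp and Alas2 and ranked 2 for Hbb, and CTR 27 was the lowest for Hba-a2, Ahsp and Alas2.

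**Figure D1:**
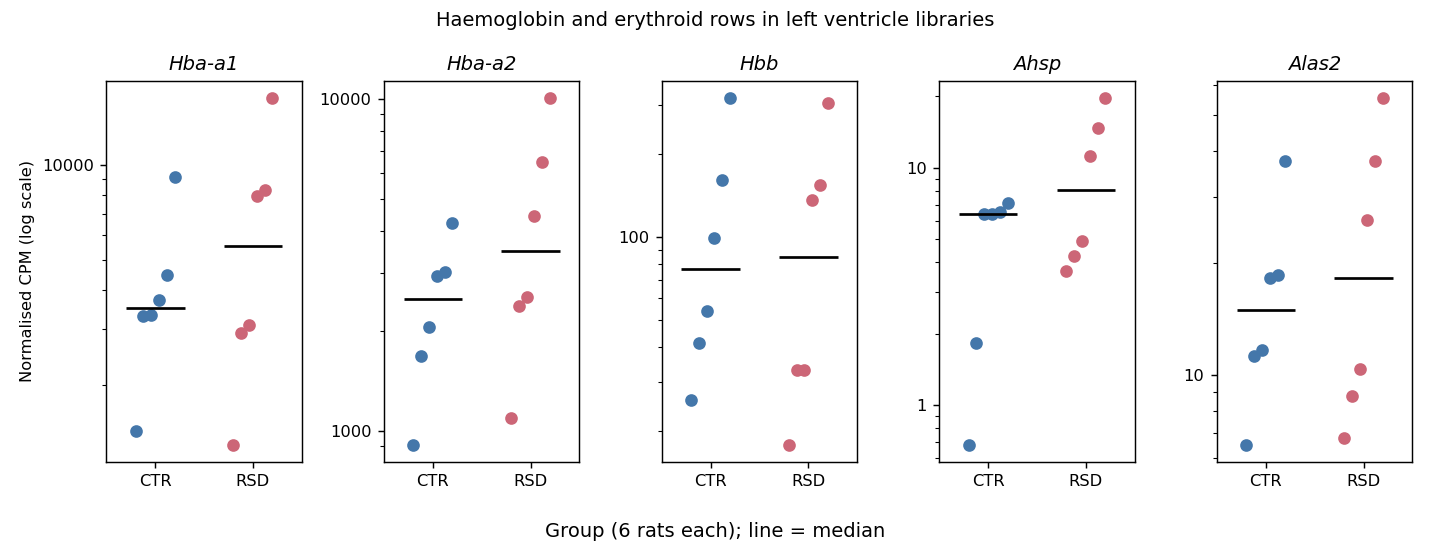
Normalised CPM (log scale) of the 5 rows in each of 6 CTR and 6 RSD libraries; each point is a rat and each line the group median. In every panel the groups overlap, and in the Hba-a1 panel the highest point (RSD 34, 16263) and the lowest (RSD 35, 1292) are both RSD.

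To ask which rows follow haemoglobin from rat to rat, log2(normalised CPM + 1) of every tested row was fitted in limma on that of Hba-a1 with group as a term, so that the slope describes variation within groups. A slope of 1 means that a doubling of Hba-a1 went with a doubling of the row, and low rows are pulled below it by the added 1. Of 7510 rows tested, 15 passed limma adjusted p 0.05 with a positive slope, a share of 0.200%, and 0 with a negative one. All 4 other genes of the set were among the 15. On the recovered reads edgeR called 14 rows (0.186%), DESeq2 15 (0.200%) and limma-voom 16 (0.213%), and with Hbb in place of Hba-a1 limma called 8 (0.107%). At an unadjusted p under 0.05 there were 199 rows of either sign.

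Hba-a2 had a slope of 0.86 on Hba-a1 (SE 0.06, limma adjusted p = 7.1e-12). Hbb had the steepest, 1.14 (SE 0.13, limma adjusted p = 1.84e-06). Alas2 had a slope of 0.87 (SE 0.09, limma adjusted p = 2.84e-07) and Ahsp of 0.71 (SE 0.14, limma adjusted p = 0.0143). The last was the least stable: Ahsp did not pass without CTR 27 (slope 0.61, limma adjusted p = 0.185) or without RSD 34 (0.73, limma adjusted p = 0.215). Hba-a2, Hbb and Alas2 passed in each of the 12 fits that left out 1 library, and all 4 passed without RSD 40. The slope did not differ between CTR and RSD beyond its error for any of the 4, with differences of −0.24 for Ahsp to 0.14 for Hbb and 95% intervals spanning 0 (−0.89 to 0.40 and −0.46 to 0.74; limma adjusted p = 1.0 for each).

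**Figure D2:**
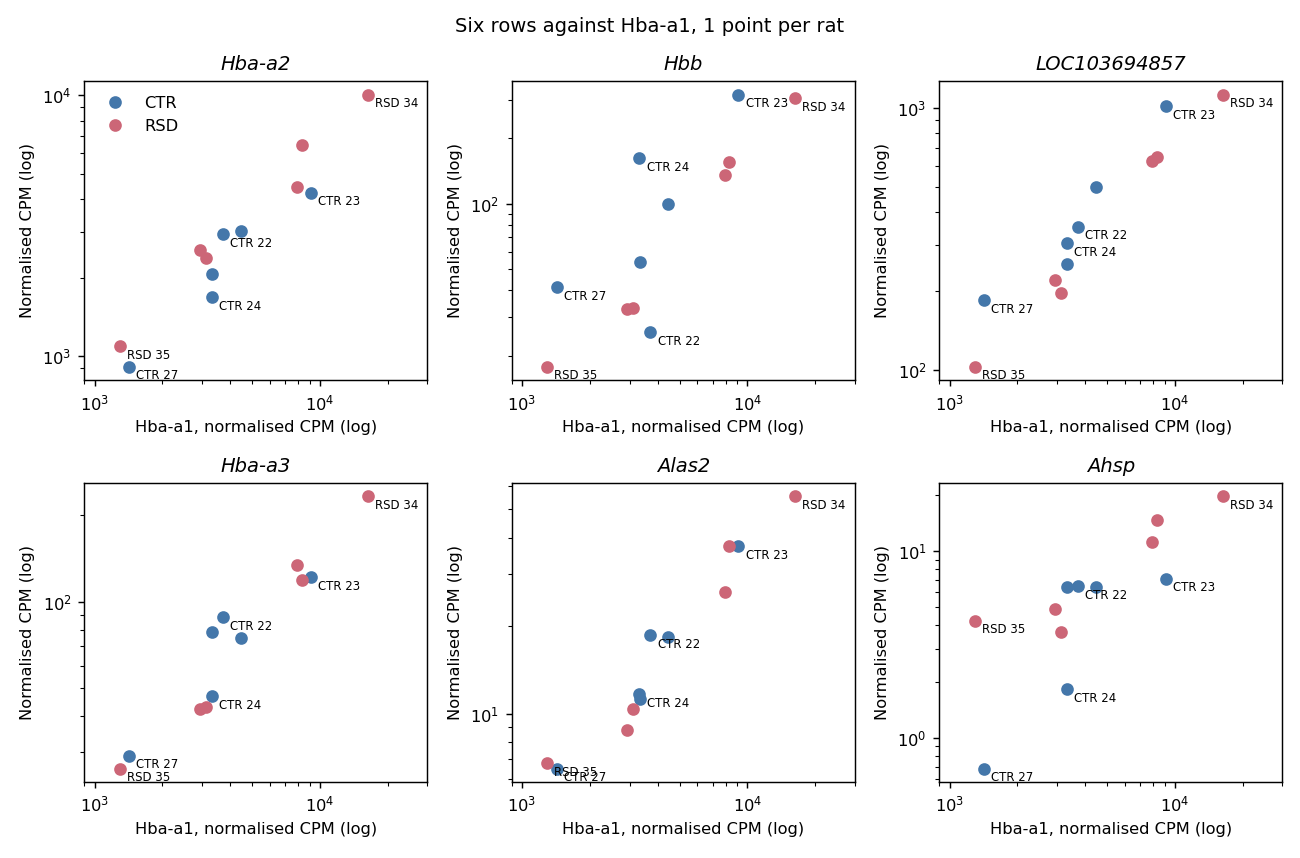
Normalised CPM of 6 rows (y axes, log scale) against that of Hba-a1 (x axes, log scale), 1 point per rat, with 6 libraries labelled. Alas2 and Hba-a2 lie close to a line with Hba-a1, while Hbb is scattered among controls, from 25.7 in CTR 22 to 161 in CTR 24 at like levels of Hba-a1.

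The same was seen pair by pair on the log2 scale over the 12 libraries, with 10 pairs compared and Benjamini-Hochberg adjustment over the 10. All 10 Pearson correlations were positive, from 0.484 to 0.969, and 9 had an adjusted permutation p under 0.05. Spearman correlations passed for 8. Hba-a1 and Alas2, which lie on different chromosomes in RefSeq, correlated at r = 0.969 (permutation p = 1e-05, the smallest that 100000 resamples can give, adjusted p = 3.33e-05; rho = 0.972, p = 1e-05), and at r = 0.958 without the 2 libraries farthest from the median, RSD 34 and RSD 35. Among the 6 controls alone r was 0.967 (exact permutation p = 0.0111), and among the 6 RSD rats 0.970 (exact permutation p = 0.00556).

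Hba-a1 and Hba-a2 correlated at r = 0.964 (permutation p = 1e-05, adjusted p = 3.33e-05; rho = 0.909, p = 7e-05) and at 0.934 without RSD 34 and RSD 35. How far reads shared by these near-identical copies enter this correlation and their slope was not tested. Hba-a2 and Ahsp, an alpha chain and its chaperone, correlated at r = 0.907 (permutation p = 0.0001, adjusted p = 0.00025; rho = 0.944, p = 2e-05) and at 0.809 without CTR 27 and RSD 34. Ahsp and Alas2 correlated at r = 0.834 (permutation p = 0.00054, adjusted p = 0.0009; rho = 0.902, p = 0.00017), and at 0.731 without the same 2 libraries.

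Hbb stood apart from the others among the controls. Hba-a1 and Hbb correlated at r = 0.840 over the 12 libraries (permutation p = 0.00053, adjusted p = 0.0009; rho = 0.776, p = 0.00381) and at 0.729 without RSD 34 and RSD 35. In RSD the value was 0.988 (exact permutation p = 0.00694, n = 6), and in CTR it was 0.679 (exact permutation p = 0.133, n = 6). Hba-a2 and Hbb correlated at r = 0.694 (permutation p = 0.0123, adjusted p = 0.0136; rho = 0.566, p = 0.0593), which fell to 0.613 without CTR 27 and RSD 34 (permutation p = 0.0605) and so rests in part on those 2. Hbb and Ahsp was the pair that did not pass, at r = 0.484 (permutation p = 0.112, adjusted p = 0.112; rho = 0.483, p = 0.116), or 0.303 without CTR 23 and RSD 34, with 0.148 in CTR and 0.970 in RSD. Whether these correlations differ between the groups was tested only as the slopes on Hba-a1 above.

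Shares of reads give these relations per library. Hba-a2 took 31.7% (CTR 23) to 46.5% (RSD 38) of the reads of the alpha pair, averaging 37.9% ± 4.54 for controls and 42.3% ± 4.30 for RSD (SD, n = 6 each). Alas2 took 0.299% to 0.522% of the reads of Alas2 and Hba-a1, a range of 1.75-fold while Hba-a1 itself ranged 12.6-fold. The Ahsp share of the reads of Ahsp and Hba-a1 was wider, from 0.0481% (CTR 27) to 0.327% (RSD 35), a range of 6.80-fold. Those ends rest on 2 and 10 Ahsp reads, with 95% Wilson intervals of 0.0132% to 0.175% and 0.178% to 0.601%. Hbb took 0.688% of the reads of Hbb and Hba-a1 in CTR 22 (95% Wilson interval 0.556% to 0.852%) and 4.63% in CTR 24 (4.23% to 5.07%). Across the controls that share averaged 2.55% ± 1.38 and across RSD 1.48% ± 0.352 (SD, n = 6 each), with the highest and lowest libraries both controls. These intervals cover counting error only, since the reads carry no molecular identifiers.

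**Figure D3:**
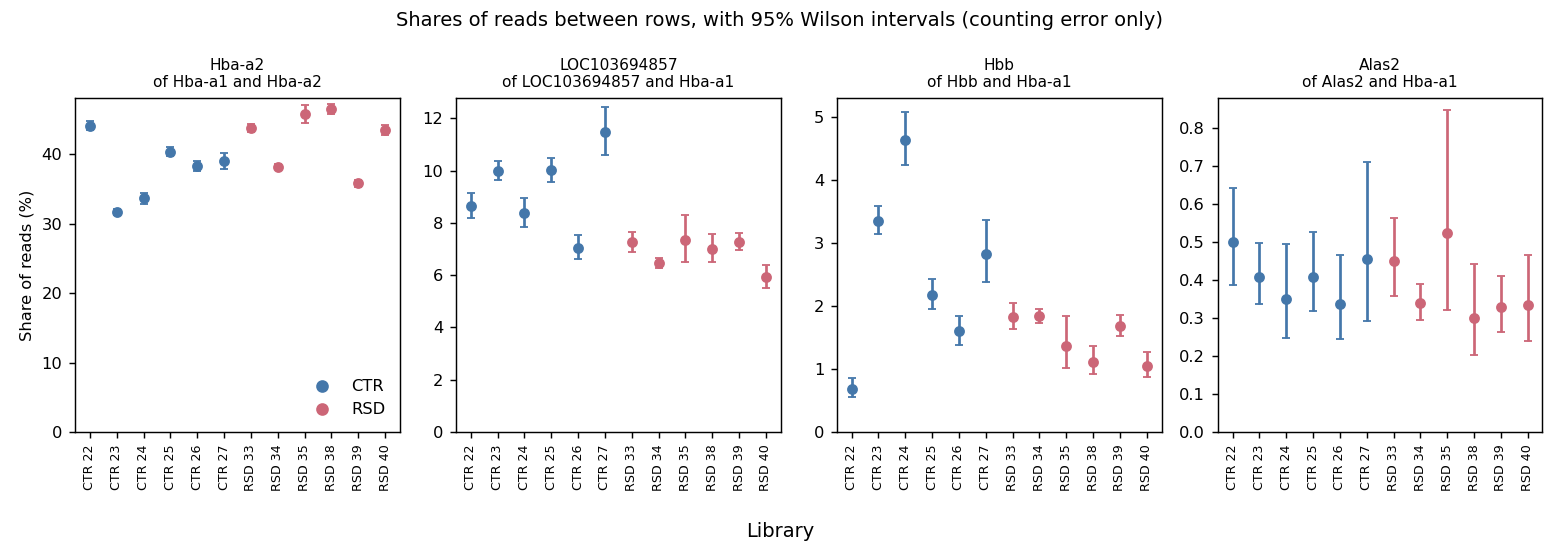
Share of reads, in percent, that the named row takes of itself and Hba-a1 (panels for Hba-a2, LOC103694857, Hbb and Alas2) in each library (x axis); bars are 95% Wilson intervals. The Alas2 shares lie within 0.299% to 0.522%, while the Hbb shares of CTR 22 (0.688%) and CTR 24 (4.63%) have intervals far apart.

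Of the 11 other rows that followed Hba-a1, 4 stood in a list of other erythroid genes, 2 in the list of other globins and 5 in no list. The erythroid list of 28 genes had 10 tested rows. Of these, 4 had a positive slope past limma adjusted p 0.05 and 0 a negative one. Over all 7510 rows tested, 0.200% had such a positive slope and 0 a negative one. The median slope of the list was 0.23, against −0.00 over all rows tested. Car2, a carbonic anhydrase abundant in red cells, had a slope of 0.61 (limma adjusted p = 0.000133) and ran from 9.75 to 51.7 normalised CPM. Mkrn1, a ubiquitin ligase, had 0.62 (limma adjusted p = 0.00305). Bpgm, which makes the bisphosphoglycerate that lowers the oxygen affinity of haemoglobin, had 0.50 (limma adjusted p = 0.00176). Slc4a1, the anion exchanger of the red cell membrane, had 0.47 (limma adjusted p = 0.0143). RSD 34 was the highest library for each of these 4 genes. Of the 4, Car2 passed in each fit without 1 library, while without RSD 34 Bpgm (limma adjusted p = 0.1), Mkrn1 (0.0599) and Slc4a1 (0.555) did not, nor did Mkrn1 (0.293) and Slc4a1 (0.1) without RSD 35 or Slc4a1 (0.179) without CTR 27. With Hbb in place of Hba-a1 none of the 4 passed, where 8 of all 7510 rows (0.107%) did. Their slopes were then 0.35 for Car2, 0.32 for Bpgm, 0.36 for Mkrn1 and 0.29 for Slc4a1 (limma adjusted p = 0.237, 0.164, 0.375 and 0.382).

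Members of the list that did not pass included Tmcc2 (slope 0.32, limma adjusted p = 0.445) and Bnip3l, a mitophagy receptor of maturing red cells that other tissues also express (0.13, limma adjusted p = 1.0). The transferrin receptor Tfrc (−0.06) and the spectrin gene Sptb (−0.02) had slopes near 0, each with limma adjusted p = 1.0. Of the 17 listed rows that were in the table and not tested, Gata1, Rhag, Tspo2 and Car1 had 0 reads in all 12 libraries.

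**Figure D4:**
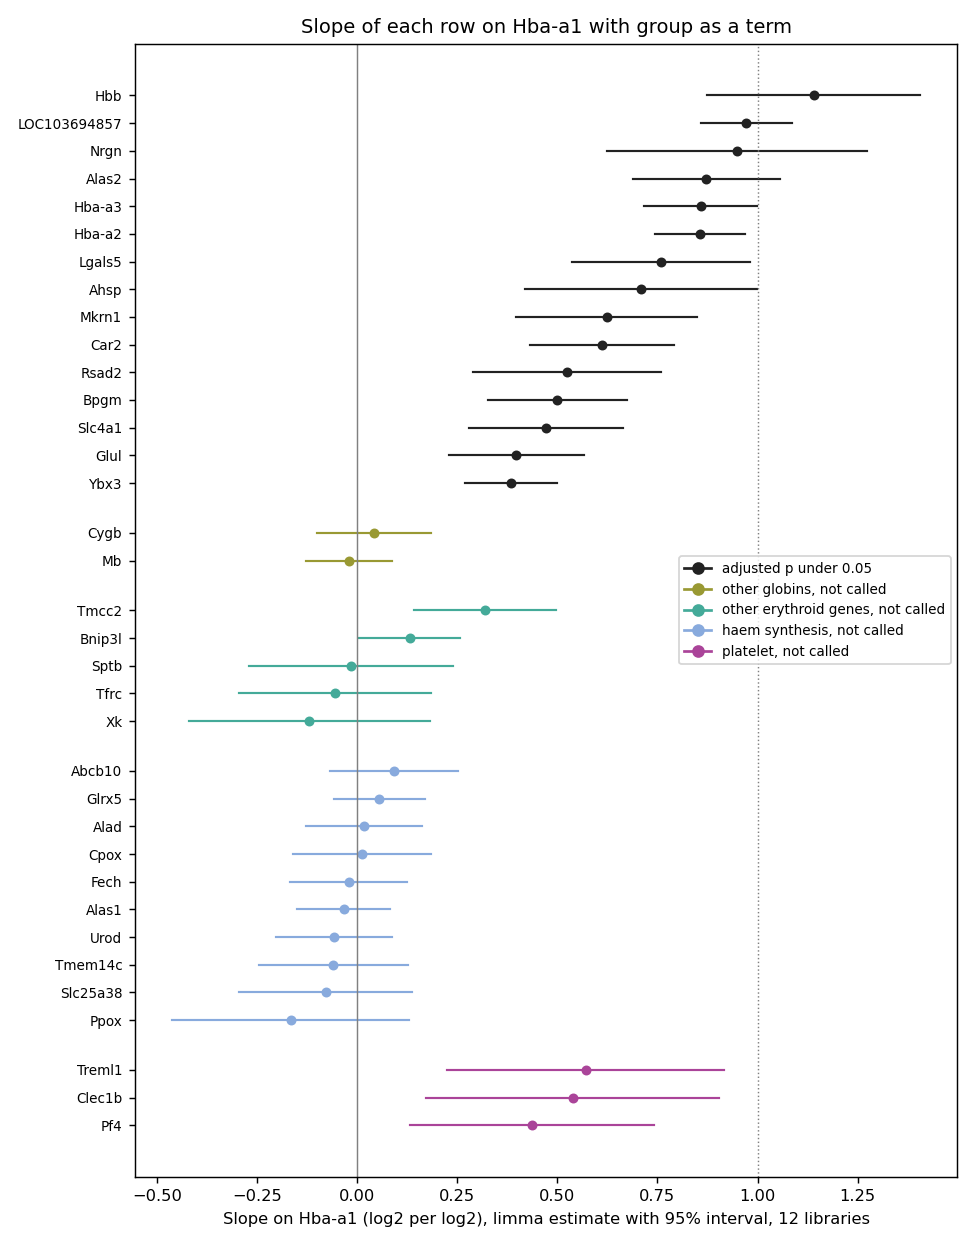
Slope on Hba-a1 (log2 per log2) with its 95% interval for the 15 rows past adjusted p 0.05 and for rows of 4 lists that were tested and did not pass. The passing rows lie from 0.38 (Ybx3) to 1.14 (Hbb), and the haem synthesis genes and Mb lie around 0.

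Of the other globin genes, Hba-a3 had a slope of 0.86 (SE 0.07, limma adjusted p = 8.79e-10), at 26.3 to 233 normalised CPM. LOC103694857, a row that was placed in the globin list by its locus name and that no table used here annotates further, had 0.97 (SE 0.06, limma adjusted p = 4.25e-13), at 103 to 1123. Both passed in each fit without 1 library. Mb, myoglobin, did not pass: its slope was −0.02 (95% interval −0.13 to 0.09), at 4418 to 6838 normalised CPM. Cygb, cytoglobin, had 0.04 (−0.10 to 0.18). Embryonic and fetal globin rows were near or at 0, with Hbe1, Hbe2 and Hbz without a read and Hbg1 and Hbq1 with a read in 1 library each.

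The order of libraries by LOC103694857 matched that by Hba-a1 at both ends, RSD 35 and CTR 27 lowest and CTR 23 and RSD 34 highest. It took 7.06% to 11.5% of the reads of itself and Hba-a1 in CTR and 5.94% to 7.36% in RSD, with means of 9.27% ± 1.56 and 6.89% ± 0.570 (SD, n = 6 each). At equal Hba-a1 its level was lower in RSD by a log2 value of −0.44 (95% interval −0.67 to −0.21), which did not pass over all rows (limma adjusted p = 0.32).

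The remaining 5 rows past the threshold stood in none of the lists. Lgals5, a galectin known from rat reticulocytes, had a slope of 0.76 (limma adjusted p = 0.000133) and ran from 2.40 (CTR 27) to 30.7 (RSD 34) normalised CPM. Ybx3, a Y-box protein that binds RNA, had 0.38 (limma adjusted p = 0.000183) and ran from 70.2 (CTR 27) to 190 (RSD 34). Nrgn, a calmodulin-binding protein known from neurons and human platelets, had 0.95 (limma adjusted p = 0.00143), with its highest library CTR 22 at 40.9, and did not pass without RSD 35 (limma adjusted p = 0.365). Nrgn also missed in edgeR (adjusted p = 0.098) and limma-voom (adjusted p = 0.054). In limma it missed with no filter (adjusted p = 0.0507) and with Hbb in place of Hba-a1 (adjusted p = 0.614). Glul, glutamine synthetase, had 0.40 (limma adjusted p = 0.0239) and Rsad2, an interferon-induced gene, 0.52 (limma adjusted p = 0.0417). Lgals5 and Ybx3 passed in each fit without 1 library. Glul missed in 5 of those 12 fits (without CTR 23, CTR 27, RSD 34, RSD 35 or RSD 39; limma adjusted p = 0.0673 to 0.484) and Rsad2 in 8 (without CTR 23, CTR 25, CTR 26, CTR 27, RSD 34, RSD 35, RSD 38 or RSD 39; 0.057 to 0.835).

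No haem synthesis gene outside Alas2 passed the test on Hba-a1. Of 12 listed genes 11 were tested, 0 passed in either direction, and the median slope was −0.03. Over all 7510 rows tested only 0.200% passed, so a list of this size would seldom hold a call. Alas1, the housekeeping counterpart of Alas2, measured 121 to 167 normalised CPM in CTR and 104 to 152 in RSD, with a slope of −0.03 (95% interval −0.15 to 0.08). Fech, which inserts iron into haem, had −0.02 (−0.17 to 0.12) and Alad 0.02 (−0.13 to 0.16). The other 8 tested genes had slopes from −0.17 (Ppox) to 0.09 (Abcb10), and all 11 intervals lie below the slope of Alas2. Genes that handle free haem, haemoglobin and iron gave 0 of 8 past the threshold, with Hmox1, the inducible haem oxygenase, at 0.05 (−0.19 to 0.29), Cd163, the haemoglobin scavenger receptor of macrophages, at −0.28 (−0.60 to 0.04), and Fth1, ferritin heavy chain, at 0.03 (−0.07 to 0.12). Of these 8 slopes 5 were above 0. Among them were Blvra at 0.20 (−0.11 to 0.52), Hmox2 at 0.16 (0.005 to 0.31) and Slc48a1 at 0.09 (−0.08 to 0.27).

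Markers of other cells were compared as summed normalised CPM with the summed 3 globin rows, on the log2 scale over 12 libraries, with adjustment over 10 lists. The other erythroid list followed them at r = 0.923 (permutation p = 5e-05, adjusted p = 0.0005; rho = 0.937, p = 4e-05), at 0.839 without CTR 27 and RSD 34, and at 0.951 within CTR and 0.9495 within RSD. The sum of that list was 150 to 247 normalised CPM in CTR and 179 to 395 in RSD. It includes Car2, Bpgm, Mkrn1 and Slc4a1, which followed Hba-a1 in the same libraries above, so it is not separate evidence. The platelet list followed at r = 0.739 (permutation p = 0.00656, adjusted p = 0.0328; rho = 0.804, p = 0.0026), at 0.663 within CTR and 0.859 within RSD, but at 0.496 without CTR 27 and RSD 34 (permutation p = 0.142), so the call rests in part on those 2 libraries. It also missed the adjusted threshold without any one of CTR 27, RSD 33, RSD 34, RSD 39 or RSD 40, with r from 0.642.

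The platelet list had reads for 10 of 13 genes, at 4.79 to 48.3 summed normalised CPM in CTR and 12.3 to 50.9 in RSD, with Gp5 and Tubb1 among those at 0. Its 3 tested genes had positive slopes on Hba-a1 that did not pass. They were Treml1 at 0.57 (95% interval 0.23 to 0.92, limma adjusted p = 0.929), Clec1b at 0.54 (0.17 to 0.90, limma adjusted p = 1.0) and Pf4, a platelet chemokine, at 0.44 (0.13 to 0.74, limma adjusted p = 1.0). CTR 22 and RSD 34 had the highest sums, and CTR 22 was only the library of rank 7 from below for Hba-a1.

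White blood cell lists gave no relation that passed. Neutrophil genes summed to 1.22 to 31.4 normalised CPM in CTR and 0.848 to 10.2 in RSD (r = 0.285, permutation p = 0.369, adjusted p = 0.755; rho = 0.378, p = 0.228), with reads for 10 of 13 rows and Mpo, Cxcr2 and Ltf at 0. Lymphocyte genes summed to 4.57 to 12.8 and 3.36 to 10.5 (r = 0.203, permutation p = 0.525, adjusted p = 0.755; rho = 0.0979, p = 0.767). None of the neutrophil or lymphocyte rows had enough reads to be tested. In the monocyte list 3 rows were tested, Lyz2, S100a4 and Csf1r, with medians of 33.9, 23.6 and 6.29 normalised CPM. Ccr2 and Plac8 of that list had 4 reads and 1 read over all 12 libraries, so its sum holds almost nothing of them. Monocyte genes summed to 63.8 to 88.3 and 49.6 to 78.4 (r = 0.196, permutation p = 0.543, adjusted p = 0.755; rho = −0.0979, p = 0.765). Within groups the monocyte list gave r = −0.410 for controls and 0.793 for RSD (exact permutation p = 0.421 and 0.0583), the neutrophil list 0.104 and 0.785 (exact permutation p = 0.857 and 0.0708) and the lymphocyte list 0.104 and 0.488 (exact permutation p = 0.844 and 0.314). Without CTR 27 and RSD 34 the monocyte list gave r = 0.531 (permutation p = 0.114), the neutrophil list 0.332 and the lymphocyte list 0.0975.

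No relation passed for vessel and muscle genes either. Endothelial genes summed to 468 to 556 normalised CPM in CTR and 477 to 534 in RSD (r = −0.0492, permutation p = 0.879, adjusted p = 0.879; rho = 0.028, p = 0.938), and cardiomyocyte genes gave r = −0.166 (permutation p = 0.604, adjusted p = 0.755; rho = −0.385, p = 0.22). Without CTR 27 and RSD 34 these values were 0.505 (permutation p = 0.136), close to that of the platelet list, and −0.484 (permutation p = 0.143). Haem synthesis gave r = −0.184 (permutation p = 0.569, adjusted p = 0.755; rho = −0.266, p = 0.404), haem handling 0.102 (permutation p = 0.752, adjusted p = 0.835; rho = 0.014, p = 0.974), and the other globin list, whose sum is mostly Mb, 0.403 (permutation p = 0.195, adjusted p = 0.651; rho = 0.378, p = 0.227). The haem handling sum is likewise mostly 1 gene, Fth1, at 574 to 795 normalised CPM. Hba-a1 correlated with total reads at r = 0.164 (permutation p = 0.611) and with the mitochondrial share at −0.253 (permutation p = 0.425). With the number of genes with a read it correlated at 0.0498 (permutation p = 0.879). The adjusted permutation p was 0.879 for each over the 3, and rho was 0.112, −0.259 and 0.154. Without the 2 libraries farthest from the median, r with these 3 measures was −0.477, −0.0509 and −0.383 in the same order. The amount of blood in each punch was not measured in the sources used here, and its part in the relations above was not tested.

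**Figure D5:**
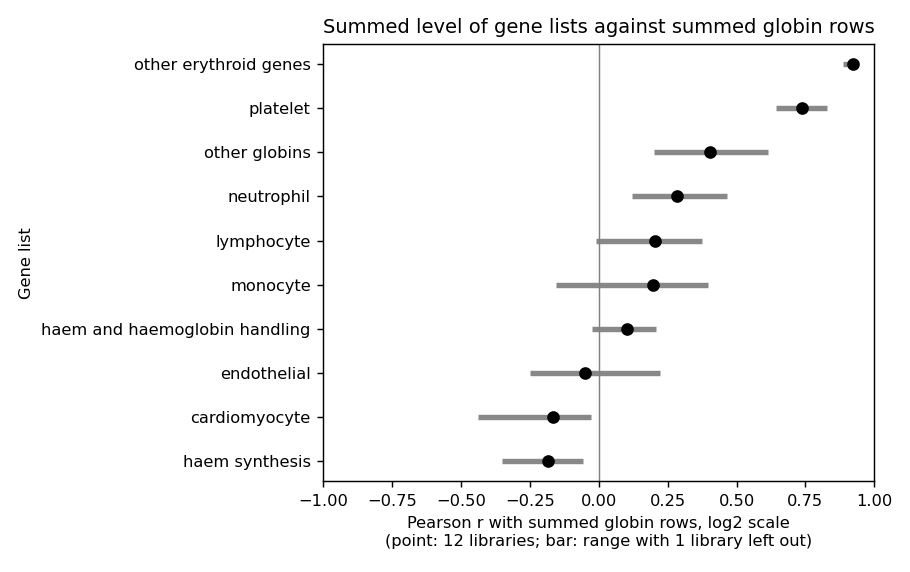
Pearson correlation (x axis) over 12 libraries between the log2 summed normalised CPM of each gene list and that of the summed Hba-a1, Hba-a2 and Hbb rows; bars span the values with 1 library left out. The other erythroid list stands at 0.923 with a narrow bar and the platelet list at 0.739, while the endothelial and cardiomyocyte lists stand at −0.0492 and −0.166.

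Between RSD and CTR the 5 rows differed by less than the spread between rats. In limma 2 of 7511 rows passed adjusted p 0.05 in either direction, a share of 0.0266%, and 0 of the 5 were among them. The groups did not overlap for 0.293% of tested rows, and they overlapped for all 5 of these. At an unadjusted p under 0.05 there were 628 rows, Ahsp among them. Of the 5 genes 4 had a positive log2 difference, with a median of 0.40 against 0.00 over all tested rows, but since the rows move together they are not separate evidence.

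Hba-a1 had a log2 difference of 0.40 (95% interval −0.40 to 1.21, limma adjusted p = 0.818), which was 0.05 without RSD 34, 0.13 without CTR 27 and 0.78 without RSD 35. Hba-a2 had 0.67 (−0.04 to 1.38, limma adjusted p = 0.6247), which was 0.37 without RSD 34, 0.41 without CTR 27 and 1.01 without RSD 35. Ahsp had 0.86 (SE 0.39, limma adjusted p = 0.553) and Alas2 0.27 (−0.51 to 1.04, limma adjusted p = 0.883). Hbb had −0.20 (−1.24 to 0.85, limma adjusted p = 0.942), which was −0.62 without RSD 34 and 0.19 without RSD 35. Without RSD 40 the differences were 0.53, 0.78, 1.06, 0.42 and 0.02 in the same order, and none passed. Ahsp stood at 0.55 without CTR 27, its lowest library.

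At equal Hba-a1, with Hba-a1 as a term added after the data were seen, the differences were smaller for Alas2 (−0.09, SE 0.19), Ahsp (0.58, SE 0.29) and Hba-a2. Hba-a2 then stood at 0.32 (95% interval 0.09 to 0.56), against 0.67 without that term. Hbb had a larger difference than before, at −0.66 (−1.21 to −0.10) against −0.20. None passed over all rows (limma adjusted p = 0.456 to 0.933). Of the 15 rows that followed Hba-a1, 12 had a positive group difference, as Hba-a1 itself has, against 3807 of all 7511 tested rows. The 15 were selected for moving with Hba-a1, so their signs are not separate evidence.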

How the data were processed

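RNA of left ventricle was sequenced from 6 CTR and 6 RSD rats, 1 library each, with a 3' end kit (QuantSeq forward) on a 100-cycle flow cell, per the labels' protocols. The authors deposited 1 table of CPM values (counts scaled by library total) for 32735 rows, 23030 of them marked for removal. The submitters' processing notes list the rn6 build and, with no role stated, tools that include HTSeq 0.9.1 and STAR 2.6.0a. Each deposited value column carries the word unique in its name, which may refer to uniquely assigned reads. Beyond that word, the treatment of reads shared by near-identical globin copies is not given.

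Low values were whole multiples of 1 step per library, which gave whole reads for 100% of values within 0.1 read. CPM was recomputed from these reads and divided by TMM factors, and rows were kept by filterByExpr (minimum count 10), leaving 7511. limma with an intensity trend was fitted to log2(normalised CPM + 1), two-sided, with Benjamini-Hochberg adjustment, for group and for the slope on Hba-a1, the member with the highest mean. Differences are log2 RSD over CTR on that scale, which understates the change of low rows. The count tests on recovered reads (edgeR, DESeq2, limma-voom) were alternatives. edgeR called 14 rows for the slope and DESeq2 15, all among the 15 of limma. Of the 16 that limma-voom called, 14 were among them. Correlations used 100000 resamples, or all 720 orders within groups of 6. The fits were tested on simulated data. RefSeq start windows come from GRCr8. The software was scipy 1.17.1 under Python 3.11.15, and sva 3.50.0, DESeq2 1.42.0, edgeR 4.0.16 and limma 3.58.1 under R 4.3.3.

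Genes named beyond the members were the 10 non-member rows with proper symbols and a mean log2 value of at least 1 that had the smallest p for a positive slope, the 3 most abundant of each of 10 lists (named in part), and the other globin and haem synthesis genes with a read. A few list members are not reported here. Others named were chosen after their values were seen. The members and lists were chosen with earlier results of these data known. Nothing says that the rats of a group differ in litter or cage, so p-values measure the spread between these samples. Totals of 2062798 to 3731108 reads set the precision, and intervals for shares cover counting error only.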

Additional observations from a re-analysis of the deposited data

Results flagged for a closer look

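Of 64 sets of 6 libraries looked at (the 5 rows, the 10 named rows, list sums and shares of reads, in each group), 3 had a library far from the other 5, where chance flags about 1 in 20, or 3.2. Nrgn was highest in CTR 22 at 40.9 normalised CPM, with a gap to the next control of 0.638 of the group's range. The haem synthesis list was lowest in CTR 22, at 468 summed normalised CPM, with a gap of 0.676. The share of Ahsp in the reads of Ahsp and Hba-a1 was highest in RSD 35, at 0.327%, with a gap of 0.72. That library had 10 Ahsp reads and the lowest Hba-a1 of the 12.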

How the results depend on the processing

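No paired analysis was possible because CTR and RSD share no replicate numbers. The slopes of Hba-a2, Hbb and Alas2 on Hba-a1 kept their direction and stayed past adjusted p 0.05 under every alternative run that gave them a value. Ahsp, with few reads, stayed past it except with no filter (slope 0.71), with Hbb as the reference (0.37), without CTR 23 and RSD 34 together (0.79, added after seeing the data) and in 2 of the fits without 1 library (0.61 to 0.87 over the 12); the filter of 50 reads in 6 libraries left it out. Rows past the threshold for the slope numbered 15, and 9 with that filter, 8 with Hbb as the reference (7 of them among the 15), 8 without CTR 23 and RSD 34, 10 with no filter, and 9 (RSD 34 left out) to 15 without 1 library. For the group difference the count was 2, and 0 with no filter, 1 with the 50-read filter, 0 with 1 surrogate variable, 0 without CTR 23 and RSD 34, and 0 to 41 (41 without CTR 22) without 1 library; edgeR and DESeq2 called 2 each, with 611 and 607 rows at an unadjusted p under 0.05.

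No group difference of the 5 rows passed under any alternative. Signs turned for Hbb with 1 surrogate variable (0.0838) and without 1 library (−0.62 to 0.19), and for Alas2 with Hba-a1 as a covariate (−0.0856) and without 1 library (−0.0459 to 0.53). Of the pairs, Hba-a2 and Hbb lost its call without the 2 farthest libraries (r = 0.613) and ran from 0.595 to 0.794 without 1 library, and Hbb and Ahsp, not called, ran from 0.331 to 0.65 and passed without CTR 24. Of the lists, platelet ran from 0.642 to 0.827 without 1 library. Lists with no call changed sign: endothelial (0.107 with CPM as deposited; −0.249 to 0.221 without 1 library), cardiomyocyte (0.0345 with CPM as deposited), haem handling (−0.0236 to 0.206), lymphocyte (−0.00953 to 0.375) and monocyte (−0.156 to 0.398). The cause of these changes was not tested, except that the 50-read filter tests fewer rows. Depth limits Ahsp (2 to 71 reads) and the neutrophil and lymphocyte rows, none of which could be tested.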

Other observations

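S100a8 and S100a9, a pair of neutrophil genes, were highest in CTR 22 and CTR 24. S100a8 stood there at 10.5 and 13.1 normalised CPM (34 and 36 reads) and S100a9 at 10.2 and 12.8, while the other 10 libraries lay between 0 and 5.48 for S100a8 and between 0 and 3.73 for S100a9. These are also the controls with the lowest (CTR 22) and the highest (CTR 24) share of Hbb reads. No relation between these was tested.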
